A study of Bos taurus with 11 samples.

Results

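The genes described here encode CTCF, its paralog CTCFL, and subunits and acetyltransferases of cohesin. They are CTCF, CTCFL, RAD21, SMC1A, SMC1B, SMC3, STAG1, STAG3, ESCO1 and ESCO2, which are 10 of the 25197 gene symbols listed in the interval table of the study. The members were taken by name. The promoter of a gene covers 2 kb before and 2 kb behind its start. The gene body is represented by intervals with their summit inside the gene beyond that window. All cells were rumen epithelial primary cells (REPC), the cultured lining cells of the forestomach, isolated from 1 Holstein bull calf aged 2 weeks that had been raised on milk replacer alone. The control libraries came from cells without added butyrate, and the butyrate libraries from cells kept for 24 h in medium with 5 mM butyrate, a fatty acid of rumen fermentation that inhibits histone deacetylases. ChIP-seq was made for 5 targets, with 1 control and 1 butyrate library each and 1 input library as the background of peak calling.

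CTCF is a zinc finger protein that binds DNA at the borders of chromatin domains. Cohesin is a ring of SMC1, SMC3 and RAD21 that carries a STAG subunit, and it extrudes chromatin loops that stall at bound CTCF. The same ring holds sister chromatids together after replication, once ESCO1 or ESCO2 has acetylated SMC3. CTCFL, SMC1B and STAG3 are known mainly from germ cells of human and mouse. Of the measured marks, H3K27ac is found at active promoters and enhancers, H3K4me3 at promoters, H3K4me1 at enhancers and promoter flanks, and H3K27me3 at chromatin held by Polycomb proteins.

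The 10 ChIP libraries held between 26824 and 54071 intervals each. Their signal is a tag density, given as a peak value at the summit and as an average over the interval. How the signal was scaled between libraries is not stated, and read totals were not used here, so depth gives no precision for these values. With 1 library per target and condition, no difference was tested. A log2 ratio of butyrate over control is therefore set beside the median ratio over all promoters marked in both libraries. The percentile of a promoter is its place among all marked promoters of the same library. A gene start was obtained for 23869 symbols, the 10 members among them. Of the fixed markers of stratified epithelium, 3 of 6 starts carried H3K4me3 in control (KRT5, DSP and PERP) and 4 of 6 after butyrate, when KRT14 was added, while the starts of TP63 and CDH1 carried none. Marker starts of other cells carried H3K4me3 as well, at 3 of 4 fibroblast starts in both conditions and at 1 of 3 endothelial starts in both. It was called at 1 of 3 smooth muscle starts in control and 3 of 3 after butyrate, and at 0 of 3 immune starts. The summed H3K4me3 signal of the fibroblast list was 197 in control and 267 after butyrate, and that of the smooth muscle list 105 and 191. The summed epithelial H3K4me3 signal was 221 and 235, the endothelial 33.3 and 66.8, and the immune 0 in both. Summed H3K27ac was 108 in control and 75.1 after butyrate for epithelium, 74.3 and 24.2 for fibroblasts, and 56.2 and 27.5 for smooth muscle. It was 0 and 27.6 for endothelium, and 23.8 and 19.6 for immune cells. H3K27me3 was called in both conditions at 2 of 4 fibroblast, 2 of 3 smooth muscle and 2 of 3 endothelial starts. It was called at 1 of 3 immune and 0 of 6 epithelial starts. PDGFRA, MYH11, DES and KDR, with H3K4me3 higher or called only after butyrate, carried H3K27me3 in both conditions. PDGFRB, CDH5 and CD3E had H3K27me3 without H3K4me3. The part of other cell types in the values below was not tested.

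The members fell into a group with active promoter marks and a group with H3K27me3. CTCF, RAD21, SMC1A, SMC3, STAG1, ESCO1 and ESCO2 carried H3K4me3 in both conditions and H3K27ac in control, with no H3K27me3 at the promoter in either condition. At ESCO2 the H3K27ac interval reached the window from the side of CCDC25, a divergent neighbour. CTCFL and SMC1B carried H3K27me3 and neither of the active marks. STAG3 stood between them in control, with H3K4me3, H3K4me1 and H3K27me3 at the same promoter. STAG3 was the only member with both H3K4me3 and H3K27me3 in control, a pair found at 14.2% of all promoters, and no member held the pair after butyrate (14.0% of all promoters).

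**Figure D1:**
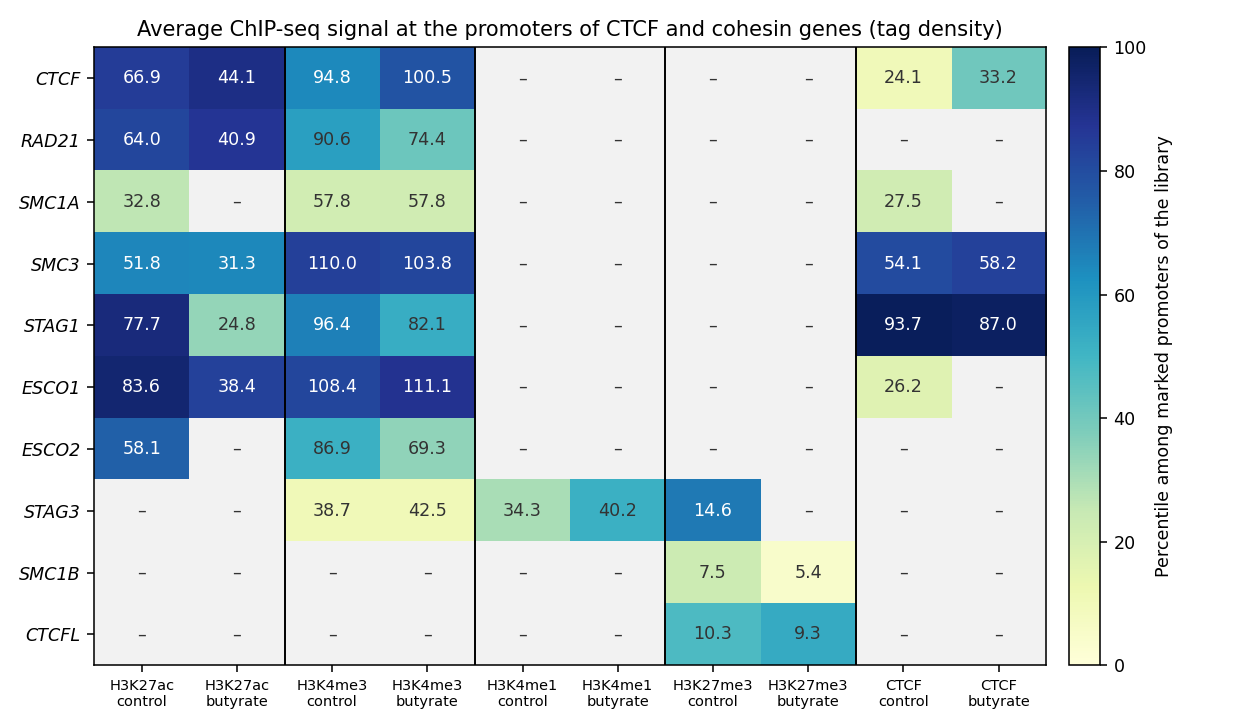
Average signal (tag density) at the 10 member promoters, with genes as rows and the 10 libraries as columns. The colour gives the percentile among all marked promoters of that library and a dash means that no interval reached the promoter, so that 7 genes hold H3K4me3 without H3K27me3, CTCFL and SMC1B hold H3K27me3 without H3K4me3, and STAG3 holds both in control.

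H3K27ac was found at 7 of 10 member promoters in control, where 47.3% of all promoters carried it, and at 5 of 10 after butyrate, where 34.9% did. SMC1A and ESCO2 were marked in control only, which was 2 of 7 members against 30.4% of all promoters marked in control. At ESCO2 the interval lay near the start of CCDC25, with its summit 2463 bp upstream, and was called there in both libraries. Only the control interval reached the ESCO2 window. With a window of 1 kb the counts were 6 in control and 5 after butyrate, and with 5 kb they were 7 and 6. None of the 3 members without H3K27ac in control gained it, and 3.64% of all such promoters did. The average signal as deposited was lower after butyrate at each of the 5 members marked in both, and once centred on the median promoter at ESCO1 and STAG1 alone. In bulk chromatin, fewer cells with a mark and less of the mark per cell cannot be told apart. The member median log2 ratio was -0.73 and the median over 7865 promoters was -0.76, so the members taken as a list lay near the shift seen across the genome. The signal at STAG1 and ESCO1 was at least 2-fold lower, which was 2 of 5 members against 32.5% of all promoters marked in both. Centred on the median promoter, the log2 ratios were 0.16 for CTCF, 0.12 for RAD21, 0.034 for SMC3, -0.36 for ESCO1 and -0.89 for STAG1. ESCO1 and STAG1 were also the members with a negative ratio under a scaling on the 10% of promoters with the highest signal, at -0.16 and -0.68.

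H3K4me3 was found at 8 of 10 member promoters in control and at the same 8 after butyrate, all but CTCFL and SMC1B. Over all promoters the shares were 56.8% and 61.9%. No member was marked in control only (0.413% of all promoters marked in control), and neither of the 2 unmarked members gained the mark (12.4% of all unmarked promoters). The log2 ratios ran from -0.33 at ESCO2 to 0.13 at STAG3, with a median of -0.04 against -0.02 over 13496 promoters. The ESCO2 value includes the interval over the CCDC25 start, and with a window of 1 kb, which leaves it out, the ratio was -0.15. No member differed by 2-fold in either direction, and 3.48% of all promoters did. SMC1A had an H3K4me3 average signal of 57.8 in both libraries, while its H3K27ac interval was called in control only.

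**Figure D2:**
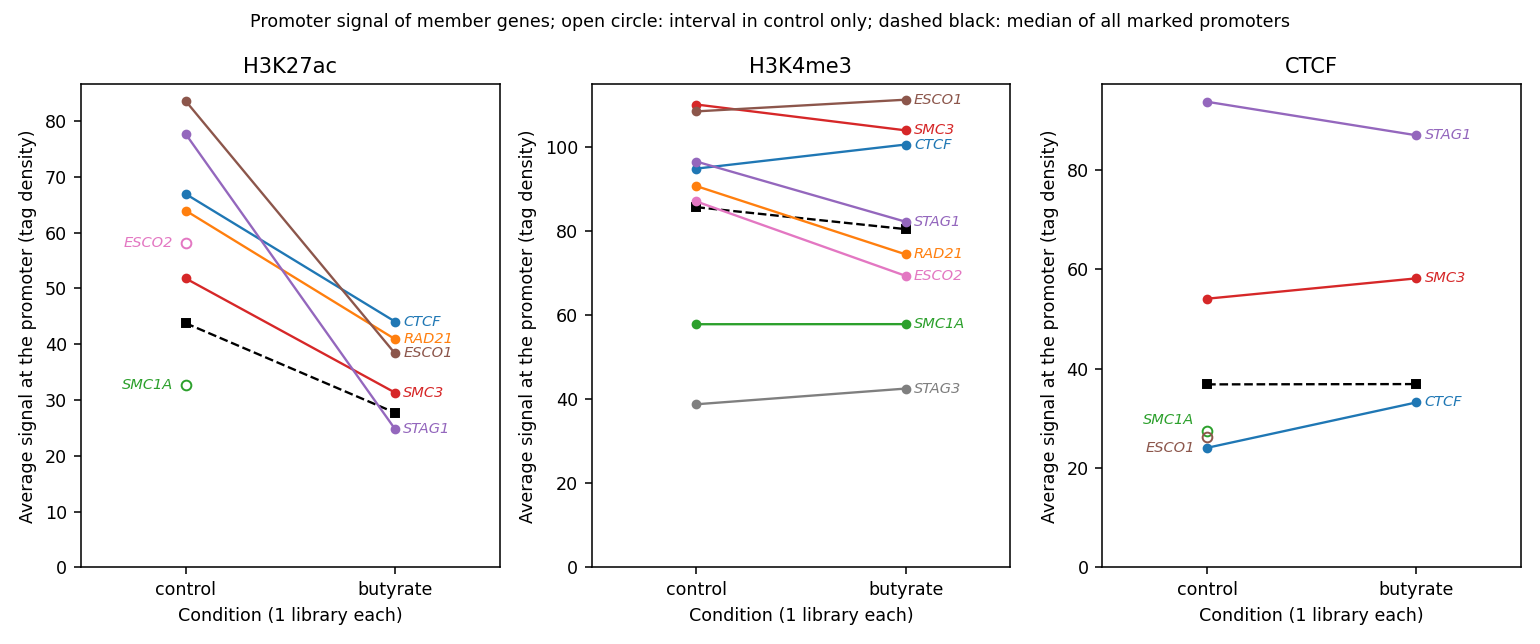
Average signal (tag density) at member promoters in the control and the butyrate library, for H3K27ac, H3K4me3 and CTCF. Each line joins the 2 libraries of a gene, open circles are promoters marked in control only, and black squares are the medians of all marked promoters. For H3K27ac as deposited all 5 lines slope down with the median, STAG1 from 77.7 to 24.8, while the H3K4me3 lines stay nearly level.

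The CTCF gene, on chromosome 18 with its start at 35245196 on the plus strand, carried H3K27ac, H3K4me3 and its own protein at the promoter. Coordinates are those of the assembly UMD3.1 as deposited, and whether they count from 0 or 1 is not stated. Its H3K27ac average signal was 66.9 in control and 44.1 after butyrate, with peaks of 194 and 128, and a log2 ratio of -0.60. These values rest on different intervals. In control a single interval of 1863 bp covered the start, with its summit at 596 bp. After butyrate intervals of 233 bp and 953 bp with peaks of 24 and 63 lay just inside the gene, and the peak of 128 belonged to an interval of 4003 bp that reached the window from its summit 3724 bp upstream. That summit lies near the start of LOC101906364, an uncharacterized locus on the opposite strand 3121 bp away. A control interval at the same place, with its summit 3628 bp upstream and a peak of 79, ended 2390 bp upstream, outside the window. With a window of 5 kb the log2 ratio was -0.22. With the interval nearest to the start alone, an alternative chosen after seeing the data, the log2 ratio was -1.78. After butyrate that interval is the one of 233 bp, and the one of 953 bp is left out.

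H3K4me3 at the CTCF start was strong in both libraries, with peaks of 282 in control and 311 after butyrate and average promoter signals of 94.8 and 100.5. The log2 ratio was 0.08. These averages include upstream intervals that reach the window from the side of LOC101906364. The ratio was -0.50 with a window of 1 kb and -0.48 with weights by overlap, the latter chosen after seeing the data. The 1 kb window does not remove that side evenly. It keeps the control interval of 3903 bp, which ended 776 bp upstream. The butyrate interval of 2974 bp ended 1776 bp upstream and is left out. In control the mark over the start was split into intervals of 364 bp and 1938 bp, and after butyrate a single interval of 2434 bp spanned both. CTCF protein was bound just inside the gene in both conditions. The CTCF average signal there was 24.1 in control, at the 10.1 percentile of marked promoters, and 33.2 after butyrate, at the 40.2 percentile. The log2 ratio was 0.46, against 0.04 over 5140 promoters. The control site was a single interval with a peak of 29, and after butyrate there were 2 intervals with peaks of 35 and 47. With peaks at or above the 25% quantile of each library alone, the control call ended and the promoter stayed marked after butyrate. A much stronger CTCF site lay downstream of the gene, with its summit 51444 bp from the start in both libraries and peaks of 170 and 183.

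CTCFL, the germ cell paralog of CTCF, starts on chromosome 13 at 59193279 on the plus strand and carried no H3K27ac, H3K4me3 or H3K4me1 at its promoter. H3K27me3 had an average promoter signal of 10.3 in control and 9.25 after butyrate, with peaks of 41 and 28. In control, an interval of 25799 bp began 79 bp before the start and ran through the gene. After butyrate this interval measured 23399 bp and began 121 bp inside the start. H3K27me3 interval starts fall on a grid of 200 bp, so these edges differ by a single step of the grid. A second control interval ended 1880 bp upstream, and the nearest upstream interval after butyrate ended 3680 bp upstream. The second control interval covered the start of LOC104973839, on the opposite strand 2415 bp upstream, and entered the control average. With a window of 1 kb, which leaves it out, the log2 ratio was -0.22 instead of -0.15. CTCF protein bound inside CTCFL at a site 10273 bp from the start in control, with the highest peak 53 in control and 67 after butyrate. Downstream of the gene another site had peaks of 88 and 86. Thus the paralog pair differed in its histone marks while both genes held CTCF sites.

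RAD21, the subunit that closes the cohesin ring, starts on chromosome 14 at 49558483 on the plus strand. Its H3K27ac average signal was 64.0 in control and 40.9 after butyrate, a log2 ratio of -0.64. The peak was 187 and 59, a log2 ratio of -1.66, and the interval measured 1959 bp in control and 694 bp after butyrate. By peak and width the difference was therefore larger than by the average. H3K4me3 at RAD21 was 90.6 in control and 74.4 after butyrate, a log2 ratio of -0.28. The butyrate value includes a separate interval of 297 bp inside the gene with an average of 17.9. With a window of 1 kb, which leaves that interval out, the log2 ratio was -0.15. An uncharacterized locus, LOC781253, starts on the opposite strand 2477 bp inside the gene. No CTCF interval reached the RAD21 promoter, and the nearest one, called after butyrate only with a peak of 46, lay 8275 bp upstream.

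SMC3, an ATPase arm of the ring and the target of both acetyltransferases, starts on chromosome 26 at 31387437 on the plus strand. Its H3K27ac average signal was 51.8 in control and 31.3 after butyrate. The log2 ratio of -0.73 was close to that of the median promoter, and the percentile was 65.0 in control and 64.6 after butyrate. H3K4me3 averaged 110 and 104. CTCF protein covered the SMC3 start in both libraries with its summit at the same place, 333 bp upstream, and with average signals of 54.1 and 58.2 and peaks of 102 and 118. SMC3 thus kept its rank for H3K27ac, while its CTCF signal had a log2 ratio of 0.11.

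SMC1A, the other ATPase arm, starts on chromosome X at 96252806 on the minus strand. Its control H3K27ac was the lowest of the marked members, with an average of 32.8 and a peak of 49, and no interval was called at the promoter after butyrate. CTCF protein was likewise called in control only, with an average of 27.5 and a peak of 31 at 198 bp inside the gene. H3K4me3 stayed, with peaks of 137 and 124, over 2668 bp in control and 2128 bp after butyrate. The start of RIBC1 lies 203 bp away on the opposite strand, so marks at this place cannot be assigned to SMC1A alone. After butyrate a weak H3K27ac interval, with a peak of 21, was called 13414 bp inside SMC1A.

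SMC1B, the meiotic counterpart of SMC1A, starts on chromosome 5 at 116545947 on the minus strand, only 62 bp from the oppositely directed RIBC2. It had no active mark at the promoter in either library. H3K27me3 covered the start with an average signal of 7.53 in control and 5.36 after butyrate, a log2 ratio of -0.49. The percentile was 23.1 in control and 4.31 after butyrate. The interval over the start measured 7399 bp in control and 12599 bp after butyrate. A second control interval of 3799 bp lay from 6652 bp to 2853 bp upstream. The butyrate interval began 6852 bp upstream and spanned the places of both control intervals. With peaks at or above the 25% quantile of that library alone, the SMC1B call after butyrate, with a peak of 14, ended. The starts of the SMC1 pair resembled those of CTCF and CTCFL in that H3K4me3 was called at the somatic gene and H3K27me3 at the germ cell gene. RIBC1 and RIBC2 start within the same promoter windows, so neither mark can be assigned to the SMC1 genes alone.

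**Figure D3:**
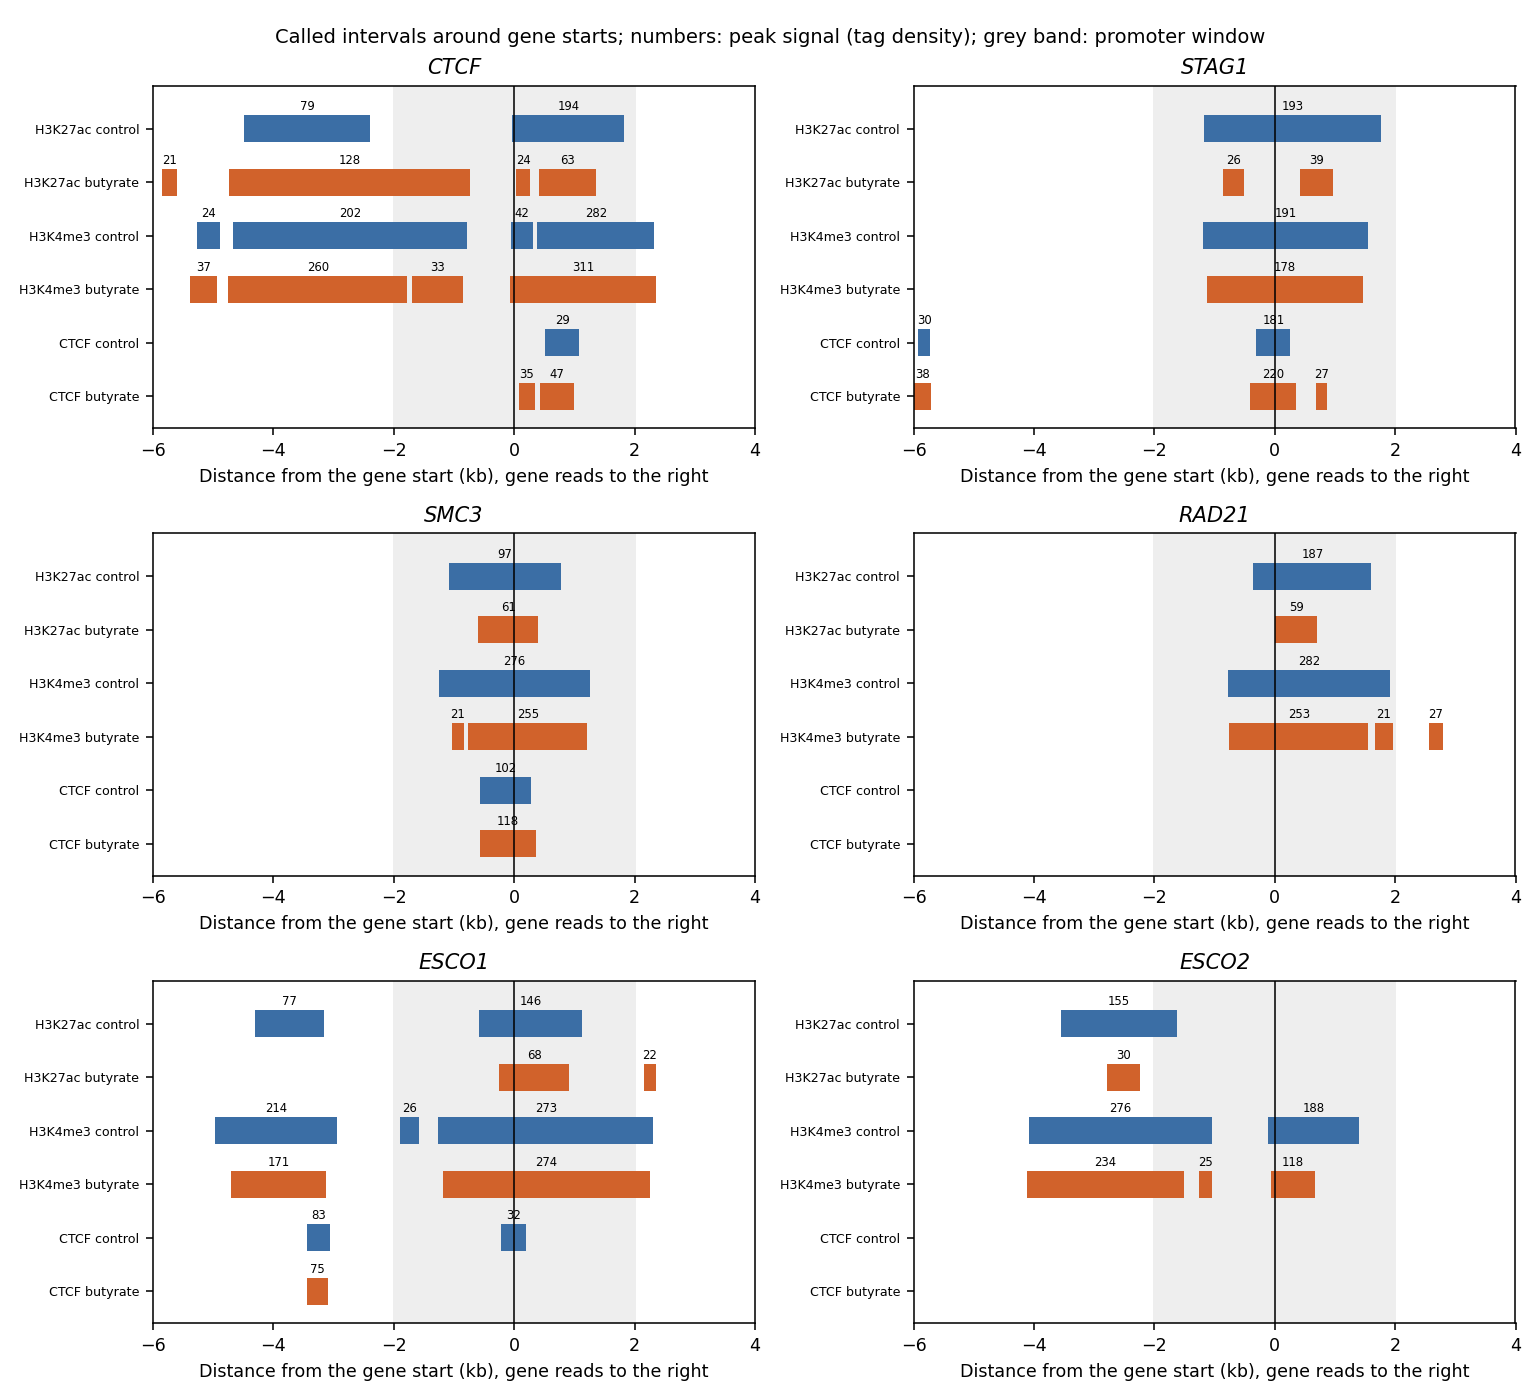
Called intervals of H3K27ac, H3K4me3 and CTCF around 6 member starts, as distance from the start in kb with the gene reading to the right, blue for control and orange for butyrate. The numbers are peak signals (tag density) and the grey band is the promoter window. At STAG1 the control H3K27ac interval with a peak of 193 stands against a butyrate pair with peaks of 26 and 39 on either side of the CTCF site, and at ESCO2 H3K27ac lies upstream of the start.

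STAG1, a cohesin subunit of somatic cells that contacts CTCF, starts on chromosome 1 at 133525779 on the plus strand and showed the largest H3K27ac difference in average signal of the members marked in both. With the interval nearest to the start alone, the log2 ratio was -1.52 at STAG1 and -1.78 at the CTCF gene. The latter rests on a butyrate interval of 233 bp with a peak of 24. It leaves out the next one, of 953 bp with a peak of 63, so these 2 ratios do not rank the genes. The H3K27ac average signal of STAG1 was 77.7 in control and 24.8 after butyrate, and its peak 193 and 39. The log2 ratio was -1.65, or -0.89 relative to the median promoter, at the 3.13 percentile of all ratios. The control interval of 2940 bp ran from 1175 bp before the start to 1765 bp behind it. After butyrate only 355 bp were called upstream and 561 bp downstream, and the start itself was free of H3K27ac intervals.

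The space between those intervals at STAG1 held CTCF protein. CTCF covered the start with peaks of 181 in control and 220 after butyrate, from 403 bp before to 353 bp behind the start in the latter. Its average signal, 93.7 in control and 87.0 after butyrate including a small second site with a peak of 27, was at the 99.0 and 98.0 percentile of marked promoters. H3K4me3 at STAG1 averaged 96.4 and 82.1 over intervals of 2733 bp and 2589 bp, a log2 ratio of -0.23. The low H3K27ac after butyrate was thus not seen for H3K4me3 or CTCF at the same start. No other gene start lay within 10 kb, so for STAG1, as for SMC3, the marks have no neighbouring start.

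STAG3, the meiotic STAG subunit, starts on chromosome 25 at 36775152 on the minus strand and was the only member to lose an H3K27me3 call at its promoter. In control, H3K27me3 covered the start in an interval of 6599 bp with an average signal of 14.6 and a peak of 39. This interval ran from 5647 bp upstream to 952 bp inside the gene. It also covered the start of GAL3ST4 on the opposite strand 3001 bp upstream, so it cannot be assigned to STAG3 alone. After butyrate no H3K27me3 interval reached the promoter, and the first one called downstream began 10353 bp inside the gene. H3K4me3 averaged 38.7 in control and 42.5 after butyrate, with peaks of 87 and 117, and the widest interval measured 929 bp and 1701 bp. In control this H3K4me3 interval stopped 128 bp short of the start, and after butyrate it covered the start and reached 520 bp behind it. STAG3 H3K4me3 was nevertheless low among marked promoters, at the 10.2 and 10.5 percentile.

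H3K4me1 at STAG3 averaged 34.3 over 3 intervals in control and 40.2 over 4 intervals after butyrate, a log2 ratio of 0.23 against -0.11 over 3244 promoters. It was the only member with H3K4me1 at the promoter, where 30.8% of all promoters carried the mark in control and 18.2% after butyrate. The mark was thus kept at the 1 member that had it, while 55.8% of all promoters marked in control were marked in control only, and 6.67% of the unmarked gained it against 0 of 9 members. An H3K4me3 interval 4048 bp inside the gene, with peaks of 54 in control and 105 after butyrate, lies at the oppositely directed start of GPC2, a proteoglycan gene 3999 bp away. No H3K27ac or CTCF interval reached the STAG3 promoter in either library.

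H3K27me3 was found at 3 of 10 member promoters in control, where 33.1% of all promoters carried it, and at 2 of 10 after butyrate, where 29.3% did. STAG3 was marked in control only, 1 of 3 members against 20.6% of all promoters marked in control. None of the 7 unmarked members gained it, and 4.61% of all unmarked promoters did. The median log2 ratio over 6264 promoters was -0.36, with which CTCFL at -0.15 and SMC1B at -0.49 may be compared. Centred on that median they were 0.20 and -0.13, so the direction at CTCFL turned with the scaling. Scaled on the 10% of promoters with the highest signal, both were higher after butyrate, at 0.84 and 0.50.

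**Figure D4:**
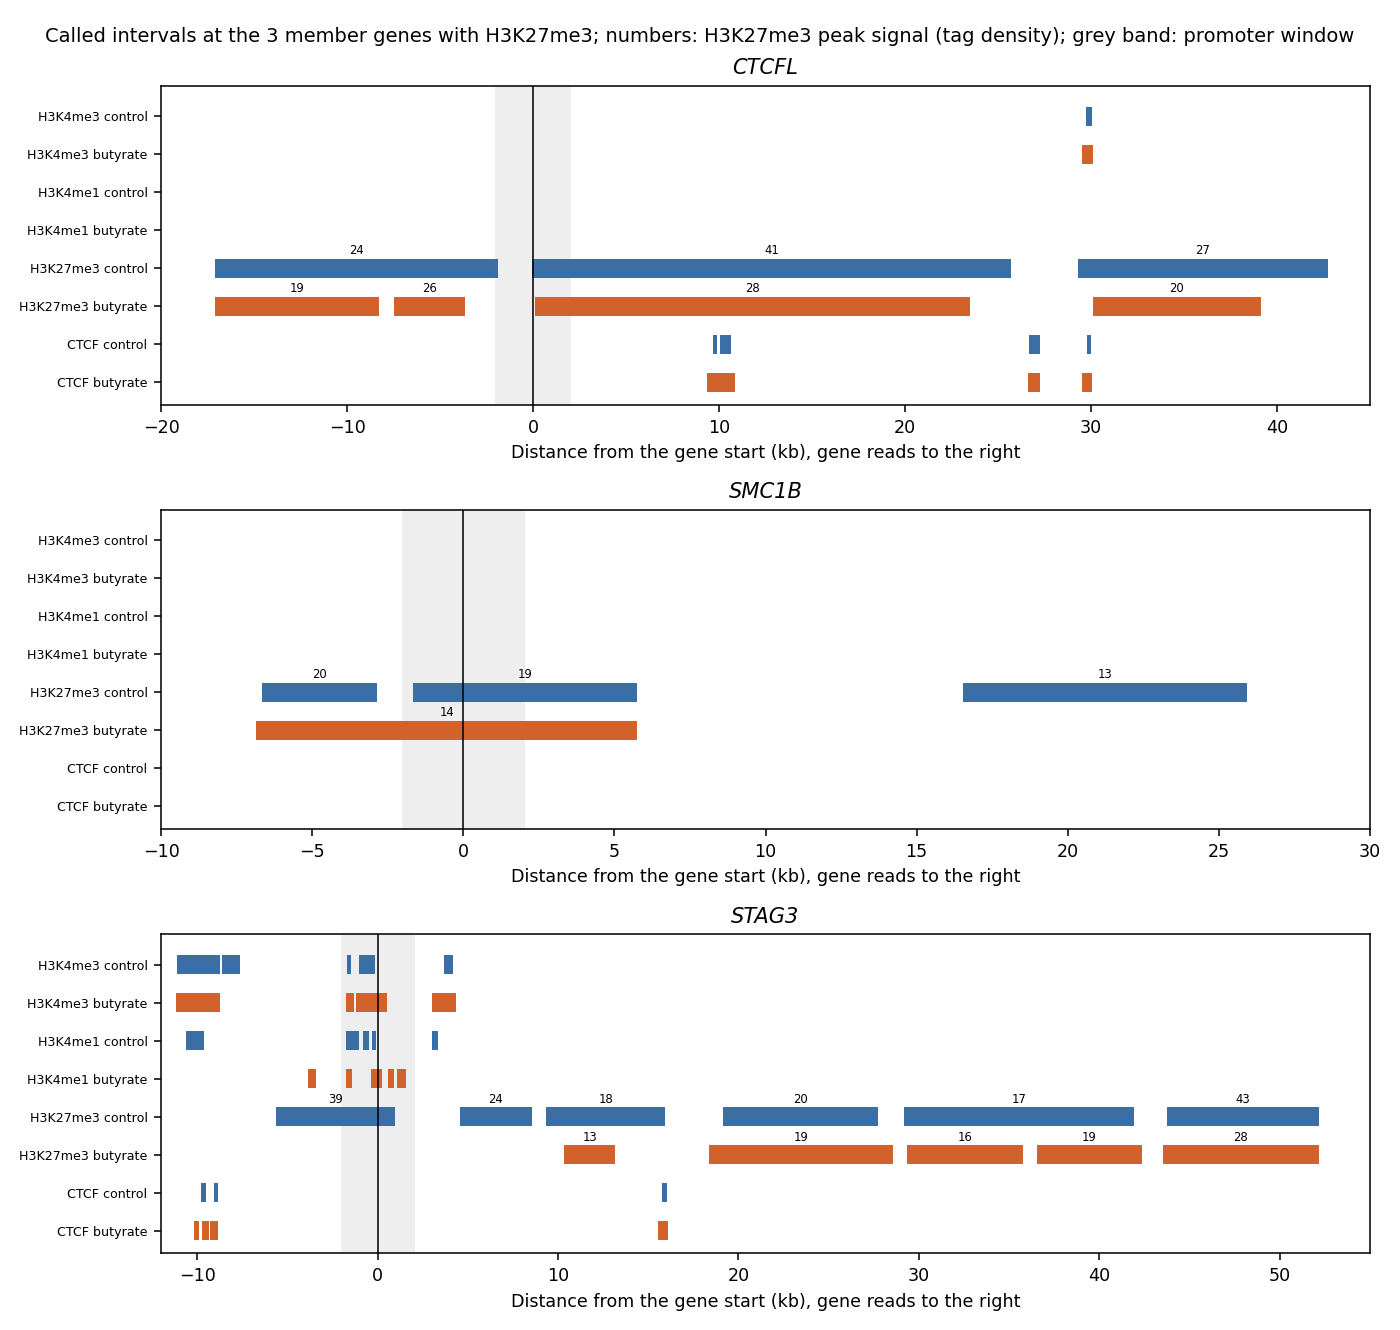
Called intervals of H3K4me3, H3K4me1, H3K27me3 and CTCF at CTCFL, SMC1B and STAG3, as distance from the start in kb with the gene reading to the right, blue for control and orange for butyrate. The numbers are H3K27me3 peak signals (tag density) and the grey band is the promoter window. H3K27me3 spans the body of CTCFL in both libraries, and the interval with a peak of 39 over the STAG3 start is called in control only.

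ESCO1, which acetylates SMC3 throughout the cell cycle, starts on chromosome 24 at 35004841 on the plus strand. It had the highest H3K27ac average signal of the members in control, 83.6 at the 94.9 percentile, and 38.4 at the 83.3 percentile after butyrate. The log2 ratio was -1.12, and the peak was 146 and 68. H3K4me3 averaged 108 and 111, at the 81.9 and 88.0 percentile. ESCO1 was therefore lower for H3K27ac, on average signal and on peak, with nearly the same H3K4me3. Its start lies 108 bp from that of SNRPD1, a core protein of the spliceosome, on the opposite strand, and both genes share these intervals.

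CTCF protein at the ESCO1 start was weak and called in control only, with an average signal of 26.2 and a peak of 32, 57 bp upstream. Another CTCF site, with its summit 3209 bp upstream in control and 3241 bp upstream after butyrate, was called in both, with average signals of 55.8 and 53.4 and peaks of 83 and 75. It overlapped an H3K4me3 interval in both libraries and an H3K27ac interval with a peak of 77 in control, where none was called after butyrate. The stronger of these CTCF sites was thus the one found in both libraries.

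ESCO2, which acetylates SMC3 in S phase, starts on chromosome 8 at 10887329 on the minus strand. Its H3K4me3 came from separate intervals over its own start and over that of CCDC25, a divergent gene 2380 bp upstream. The interval over the ESCO2 start had a peak of 188 in control and 118 after butyrate, an average signal of 71.5 and 64.3, and a width of 1497 bp and 724 bp. The interval over the CCDC25 start had peaks of 276 and 234. H3K27ac was called only at the latter, with its summit 2463 bp upstream of ESCO2 in both libraries and peaks of 155 in control and 30 after butyrate. The control interval reached the ESCO2 window and the butyrate interval of 545 bp ended 2239 bp upstream, just outside it. The ESCO2 start itself had no H3K27ac interval in either condition.

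CTCF protein was found at 5 of 10 member promoters in control, where 24.7% of all promoters carried it, and at 3 of 10 after butyrate, where 26.8% did. SMC1A and ESCO1 were marked in control only, 2 of 5 members against 12.6% of all promoters marked in control. With peaks at or above the 25% quantile of each library alone, the counts were 2 members in control and 3 after butyrate, so the direction turned. The control calls at SMC1A, ESCO1 and the CTCF gene ended, which left SMC3 and STAG1. None of the 5 unmarked members gained CTCF, and 6.93% of all unmarked promoters did. The average signals of the 2 sites called in control only, 27.5 and 26.2, were at the 22.0 and 16.9 percentile. Of the sites found in both libraries, STAG1 and SMC3 were high in both, while that of the CTCF gene, at the 10.1 percentile in control, was lower than either of them. Each of the 5 promoters with CTCF in control also carried H3K27ac, as did 4353 of the 5884 promoters with CTCF over all genes. So did the 3 after butyrate, where 3227 of 6387 did over all genes. The pair was found at 18.2% of all promoters in control and 13.5% after butyrate. Counted over all intervals listed with a member, there were 18 CTCF intervals at 7 members in control and 21 at 8 members after butyrate, where 63.8% and 68.1% of all symbols had at least 1.

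In the gene bodies, H3K27ac was more often called after butyrate, with 3 intervals in 2 members in control and 9 intervals in 4 members after butyrate. At least 1 such interval was found in 21.9% of all genes in control and 25.3% after butyrate. Most belonged to SMC1B, which had 2 intervals in control and 6 after butyrate, each at least 69182 bp behind its start. The summed length at SMC1B was nevertheless smaller after butyrate, 2669 bp against 4082 bp, and the strongest interval had a peak of 173 in control and the strongest after butyrate a peak of 44. At this place an interval of 3060 bp in control thus stood against several short ones after butyrate. That control interval and 5 of the 6 butyrate intervals are also listed with FAM118A, so they cannot be assigned to SMC1B alone. CTCF had 1 interval in each library, and SMC1A and ESCO1 had 1 after butyrate only.

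H3K27me3 in member bodies was found as 5 intervals in 3 members in control and 4 intervals in 2 members after butyrate, where 16.1% and 17.2% of all genes had at least 1. STAG3 had 3 in each library, CTCFL 1 in each, and SMC1B 1 in control only. Those of CTCFL also reached its promoter and are counted there as well. CTCF protein had 5 intervals in 4 members in control and 4 intervals in 4 members after butyrate, against 28.2% and 30.1% of all genes. They lay in CTCFL, SMC3, STAG1 and STAG3, and at CTCFL the 2 control intervals were covered by a single one of 1492 bp after butyrate. The SMC3 site lay 33683 bp behind the start with peaks of 47 and 37, the STAG1 site 467949 bp behind it with 37 and 36, and the STAG3 site 15936 bp behind it with 45 and 46. These internal sites were called in both libraries and were weaker than those at the STAG1 and SMC3 starts. H3K4me1 had 7 intervals in 4 members in control and 1 interval in 1 member after butyrate, where 28.8% and 25.5% of all genes had at least 1. H3K4me3 had 1 interval in 1 member in control and 2 intervals in 2 members after butyrate, against 17.9% and 21.9% of all genes.

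Features that did not enter the choice of genes were also counted. The H3K4me3 interval over the start overlapped an annotated CpG island at each active member except ESCO2, where neither library's interval did. Islands were overlapped by 65.4% of the control and 63.3% of the butyrate H3K4me3 intervals. The starts of SMC1A, SMC1B and ESCO1 had another start on the opposite strand within 1000 bp, which was 3 of 10 members against 16.2% of all starts.

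Other genes of cohesin, its loading and release, condensin and the partners of CTCF were taken from a list of 30 chosen by function, of which 28 had a start. H3K27ac was found at 24 of these 28 promoters in control and 18 after butyrate, against 47.3% and 34.9% of all promoters. The 6 in control only, of 24 and against 30.4% of all promoters marked in control, were HDAC8, which deacetylates SMC3, ESPL1, the protease separase that cuts RAD21, SGOL2, a protector of cohesin at centromeres in meiosis, and the condensin subunits NCAPD2, NCAPG and NCAPH. Their control averages ran from 18.0 at ESPL1 to 53.1 at NCAPD2. Of the 18 promoters marked in both, 6 were at least 2-fold lower and 0 were 2-fold higher, where 32.5% of all promoters marked in both were lower. The median log2 ratio was -0.89 against -0.76 over all promoters. The largest difference was at SMC6, a subunit of the SMC5 and SMC6 repair complex, with an H3K27ac average of 83.3 in control and 29.1 after butyrate, a log2 ratio of -1.52. Scaling by the median promoter brings the SMC6 ratio to -0.76.

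In the same list H3K4me3 was found at 25 promoters in both libraries, where 56.8% and 61.9% of all promoters carried it, with 0 called in a single library and 0 that differed by 2-fold (3.48% of all promoters). The largest difference was at ESPL1, with averages of 46.6 and 30.7 and a log2 ratio of -0.60. H3K4me1 was found at 9 promoters in control and at 1 after butyrate, the promoter of MAZ, a zinc finger factor, with 54.0 and 41.1. Over all promoters the shares were 30.8% and 18.2%, and 55.8% of those marked in control were marked in control only. H3K27me3 was found at 3 promoters in control and 2 after butyrate, against 33.1% and 29.3% of all promoters, and RAD21L1, a meiotic form of RAD21, was marked in both with 9.67 and 6.62, a log2 ratio of -0.55. REC8, the other meiotic form of this subunit, had H3K27me3 in control only, with an average of 10.5. The other H3K27me3 promoters were those of the condensin subunit NCAPG2, with 7.51 in control only, and of the topoisomerase TOP2B, with 5.75 after butyrate only. RAD21L1 carried H3K4me3 as well, with 33.5 and 43.0.

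CTCF protein was found at 10 of the 28 promoters in control and 7 after butyrate, with ESPL1, SMCHD1, an SMC protein of the inactive X chromosome, and CHD8, a chromatin remodeller that binds CTCF, in control only. Over all promoters the shares were 24.7% and 26.8%, with 12.6% of those marked in control marked in control only. Both loader genes, NIPBL with 41.4 and 39.0 and MAU2 with 45.7 and 39.1, kept their CTCF sites. The largest difference was at SMC5, the partner of SMC6, with 44.3 in control and 70.0 after butyrate, a log2 ratio of 0.66.

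Genes with the most similar pattern were sought by the distance between their 10 percentiles of promoter signal and those of CTCF, RAD21 and CTCFL, over 15543 genes. For CTCF they were PTBP3, LSM14A and CREM, at distances of 9.33, 17.5 and 19.0 percentile points. For RAD21 they were CCNYL1, CCDC127 and SDHA, at 5.47, 5.63 and 5.63. CCDC127 and SDHA had the same distance, and whether they share intervals was not checked. For CTCFL they were APOH, TIFAB and C11H2orf71, at 0.834, 0.927 and 1.47. The short distances for CTCFL reflect that 8 of its 10 percentiles are 0, so that such genes are alike mainly in having a single mark.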

How the data were processed

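ChIP-seq intervals of 5 targets in REPC, with 1 control and 1 butyrate library each, were read from a deposited table of 371758 intervals. Per the labels, the processing notes name Trim Galore 0.4.1 (its step is not stated), BWA, MACS2 and UMD3.1. Per the methods, the authors aligned reads with BWA, kept unique alignments and called peaks per library with MACS2 against the input. The starts of H3K27me3 intervals fall in steps of 200 bp, and which tool made these steps is not stated. The deposited values are signal, a tag density at the summit (peak) and over the interval (average), with the interval length and a CpG island count. Their scaling is not stated. Read totals were not used, so no precision from depth is given.

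A gene start was derived from summit and annotated distance where at least 2 listings existed and 90% of them gave one position. Reference coordinates of another assembly were not used. Promoter signal was the mean of average signal over intervals reaching the window by at least 1 bp, weighted by interval length. Marked means reached by at least 1 interval. A fold of 2 was counted as higher or lower. A percentile is the rank among marked promoters. Scripts ran in Python 3.11.15 with numpy 2.4.6, pandas 2.3.3 and matplotlib 3.10.9, and were tested on simulated data.

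The members and lists were chosen with earlier results of these data known. All members were named. Of the other cohesin pathway genes, those called in 1 library only for H3K27ac, H3K4me3 or CTCF and the largest log2 ratio per target were named, and REC8, NCAPG2, TOP2B, RAD21L1 in H3K4me3, NIPBL and MAU2 were added after their values were seen. For 3 members the 3 genes of smallest Euclidean distance were named, leaving out provisional loci, tRNA and microRNA symbols and starts within 10 kb. Markers of epithelium, fibroblasts, smooth muscle, endothelium and immune cells were checked. Alternatives were the window (1 and 5 kb), the peak threshold, the overlap, equal numbers of intervals, peak signal, a pseudocount of 1, 2 scalings and the fold. Promoter motifs and protein comparisons were not run, since no sequence was used here.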

Additional observations from a re-analysis of the deposited data

How the results depend on the processing

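With 1 library per condition, each setting gives a value and no test. No paired analysis was possible because each target has a single library per condition. A count was taken as moved beyond 1.5 times and a log2 ratio beyond the log2 of that fold. Of the main results under their alternatives, 107 stayed within these bounds and 15 moved, and of the single-gene ratios 136 stayed and 16 moved. Scaling turned the sign of the member medians of H3K27ac and H3K27me3, while those of H3K4me3, H3K4me1 and CTCF kept theirs. The member median log2 ratio of H3K27ac was 0.034 centred on the median promoter and 0.24 scaled on the 10% of promoters with the highest signal, and that of H3K27me3 was 0.67 under the latter. A window of 5 kb gave 3 members with H3K4me1 in control and 2 after butyrate. Members with H3K27me3 after butyrate were 1 with peaks at or above the 25% quantile, 1 with an overlap of 50%, and 0 when the summit had to lie in the window, a setting chosen after seeing the data. Members with CTCF were 2 in control and 3 after butyrate with the 25% quantile, which turned the direction of that count and under which body intervals after butyrate were 4 for H3K27ac and 1 for H3K4me3. Among the other pathway genes, a fold of 1.5 gave 11 with lower H3K27ac, 1 with lower H3K4me3 and 1 with higher CTCF, and a fold of 3 gave 0 with lower H3K27ac. With the interval nearest to the start alone, also chosen after seeing the data, the H3K4me3 log2 ratio of the CTCF gene was 1.32, because the control mark is split there. The cause of the other shifts was not tested. Weak intervals near the calling threshold cannot be told from absent ones without depth.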
